A study of Mus musculus with 4 samples.

Results

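Solute carriers were taken from the deposited expression table as every row whose gene symbol starts with Slc and a digit. The rule found 195 of 14226 rows, which carry 193 symbols, since Slc37a2 and Slc35a1 each have 2 rows. Of these rows 192 are carriers, while Slc4a1ap, Slc7a6os and Slc9a3r1 match the rule by spelling and encode no carrier. RNA sequencing was done on splenocytes, the mixed cell suspension of the spleen, from C57BL/6N mice of 2 groups, each with 2 libraries described as biological replicates. One group is wt. The other is vcS5 +/T, mice with a transgene called vcS5 that the descriptions trace to 1 line, line1, in a series titled for an activating STAT5 mutation in peripheral T cell lymphoma. Both groups share strain, tissue and RNA preparation. Age, sex, the transgene's promoter and the cells that express it are not given in the sources used here. The comparison asks how transcript levels of membrane transporters differ between transgenic and wt spleen.

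Solute carriers are membrane proteins that move sugars, amino acids, nucleosides, metal ions, inorganic ions and vitamins across the cell surface or the membranes of organelles, either down a gradient or coupled to another ion. They are numbered by family, so that SLC2 holds the facilitative hexose carriers, SLC7 and SLC38 amino acid carriers, and SLC25 the carriers of the inner mitochondrial membrane. In the spleen, lymphocytes draw on glucose and glutamine uptake when they are activated, while red pulp macrophages recover iron from aged red cells and export it through ferroportin.

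FPKM, fragments scaled to transcript length and to library size, had a median over all rows of 12.16 and 12.49 in the wt libraries and 12.22 and 12.58 in the vcS5 libraries. Read depth is unknown from these values. Stat5a, which encodes one of the 2 STAT5 proteins, was at 13.9 and 17.0 FPKM in wt and 105 and 123 FPKM in vcS5, 7.39-fold higher (log2 change 2.81, SE 0.17, limma adjusted p = 0.00241). Markers of the spleen's B cells, T cells, erythroid cells and macrophages were found, and none of the measured ones was listed at 0. Marker levels of several cell types differed between the groups. The summed FPKM of 14 rows of B cell markers was 4576 and 5538 in wt and 2048 and 1977 in vcS5, and 13 of the 14 rows fell. Fcer2a has 2 of these rows, and Ighd of the list was not measured. For 13 T cell markers the sum was 922 and 1247 in wt and 2512 and 3311 in vcS5, and 8 rose. CD8 T cell markers, 6 genes, summed to 503 and 440 in wt and 3530 and 3934 in vcS5, and 5 rose. Neutrophil and granulocyte markers summed to 6547 and 1981 in wt and 1067 and 1033 in vcS5, with 1 of 15 lower past the threshold, and 17 measured of 20 erythroid markers summed to 1430 and 1905 in wt and 708 and 2093 in vcS5, with 0 past it. Of 19 markers of red pulp macrophages and monocytes 16 were measured, with sums of 866 and 619 in wt and 822 and 952 in vcS5. Within that list Ly6c2 and Ccr2, which mark monocytes, rose (log2 changes 2.32 and 1.79), Lyz2 fell (-1.34), and the other 13 did not pass the test but all had negative log2 changes, so that the list median was -0.38. In bulk RNA, fewer cells of a type and less RNA per cell cannot be told apart, and the part of these shifts in the carrier results below was not tested.

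Among the 195 Slc rows, 13 rose and 3 fell in vcS5 at a Benjamini-Hochberg adjusted p under 0.05 from limma on log2(FPKM + 1). The 13 that rose are 6.67% of the Slc rows, where 4.59% of all rows rose. The 3 that fell are 1.54%, where 4.13% of all rows fell. At an unadjusted p under 0.05 the count was 52 Slc rows or 26.7%, against 25.3% of all rows. Of these, 24 were higher and 28 lower in vcS5, so rises did not outnumber falls there. Over all rows 1725 were higher and 1870 lower. Both vcS5 libraries lay above both wt libraries in 58 Slc rows, 29.7% against 26.9% of all rows, and below them in 52, 26.7% against 27.5%. Those shares lie near the background, and no difference between Slc rows and the other rows was tested. The median log2 change over Slc rows was 0.01, with quartiles of -0.27 and 0.25, beside 0.00, -0.27 and 0.24 over all rows. Slc transcripts were somewhat less abundant than the table as a whole, with a median of the mean FPKM of 9.21 against 12.7. Of 56 Slc rows with a mean under 5 FPKM, 2 passed the threshold. The counts were 7 of 82 rows from 5 to under 20 FPKM, 6 of 49 from 20 to under 100, and 1 of 8 at 100 FPKM and above. Of the 16 rows past the threshold, 5 share a locus with another row, so reads may be divided differently there: Slc37a2, Slc12a7, Slc20a1, Slc16a5 and Slc29a1.

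**Figure D1:**
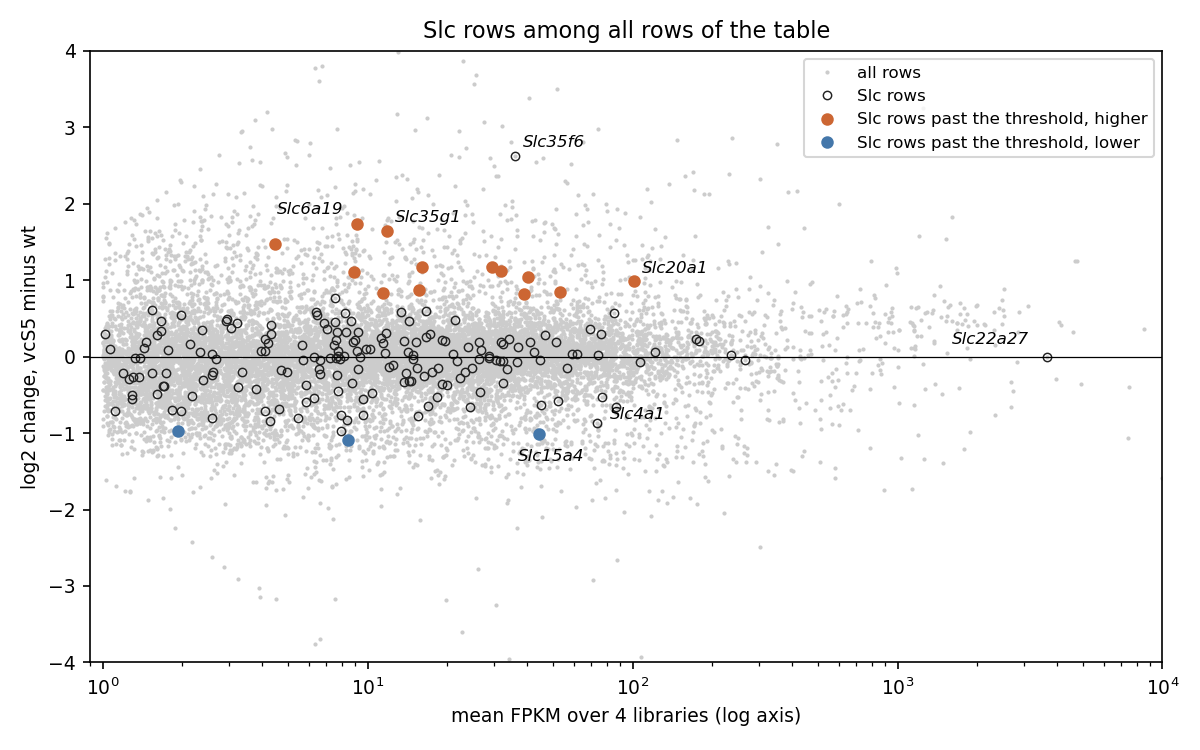
Mean FPKM over the 4 libraries (x, log axis) against the log2 change, vcS5 minus wt (y), with all rows in grey, Slc rows as open circles and Slc rows past the threshold filled in orange (higher) or blue (lower). 62 rows lie outside the plotted range, and the 13 Slc rows that rose and 3 that fell stand at the edges of a cloud whose Slc median is 0.01.

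Glucose and hexose carriers did not pass the test in either direction. The 5 measured SLC2 rows had 0 rises and 0 falls, also at an unadjusted p under 0.05, with a median log2 change of -0.06. Slc2a1 encodes GLUT1, the widely expressed glucose carrier of dividing cells. Slc2a1 was at 21.2 and 23.1 FPKM in wt and 22.3 and 20.1 FPKM in vcS5, so the groups overlapped (log2 change -0.06, 95% interval -0.42 to 0.29, adjusted p = 0.834). Slc2a3 encodes GLUT3, a high-affinity glucose carrier of neurons and leukocytes. Its FPKM was 27.5 and 21.6 in wt and 26.6 and 29.3 in vcS5, again overlapping (log2 change 0.19, 95% interval -0.24 to 0.62, adjusted p = 0.567). Slc2a9, a urate carrier by function, was at 6.32 and 7.12 FPKM in wt and 8.36 and 8.87 FPKM in vcS5 (log2 change 0.32, 95% interval -0.06 to 0.70, adjusted p = 0.264). Its vcS5 libraries were both above wt, but the difference did not pass the adjusted threshold. Slc2a6, a lysosomal hexose carrier of macrophages, was at 6.58 and 7.81 FPKM in wt and 6.54 and 5.44 FPKM in vcS5 (adjusted p = 0.487), and Slc2a8, which encodes the intracellular GLUT8, had the lowest levels of the group. Slc2a8 FPKM was 3.20 and 4.43 in wt and 2.16 and 3.18 in vcS5, with an upper bound of the log2 change of 0.21. The widest bounds over the 5 rows were -0.997 and 0.70. In a list of 25 genes of glucose use, 23 were measured, with a median log2 change of 0.07. Of the 23, 1 rose and 0 fell, where 4.59% of all rows rose and 4.13% fell. The 1 was Pfkp, the platelet isoform of phosphofructokinase, at 62.3 and 64.3 FPKM in wt and 103 and 122 FPKM in vcS5 (log2 change 0.82, adjusted p = 0.0366).

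Amino acid carriers of the cell surface and lysosome gave 22 rows, of which 0 rose and 0 fell. Their median log2 change was -0.03, within a range of -0.83 to 0.29. At an unadjusted p under 0.05 there were 4 lower rows and 0 higher, beside 1870 lower and 1725 higher of all 14226 rows. No difference from that background was tested. Slc1a5 encodes ASCT2, the main glutamine importer of activated lymphocytes, and was the most abundant row of the group. Slc1a5 was at 218 and 250 FPKM in wt and 225 and 250 FPKM in vcS5, so that the groups coincided (log2 change 0.02, 95% interval -0.39 to 0.44, adjusted p = 0.950). Slc3a2 encodes CD98, the heavy chain that carries several SLC7 light chains to the surface. Slc3a2 was at 48.3 and 42.4 FPKM in wt and 49.3 and 39.2 FPKM in vcS5 (log2 change -0.04, adjusted p = 0.916). The sodium-coupled glutamine and neutral amino acid carrier Slc38a2 ranged from 64.0 to 83.1 FPKM in wt and from 62.1 to 87.5 FPKM in vcS5, and its relative Slc38a1 from 32.0 to 34.0 FPKM and from 29.8 to 33.7 FPKM. Slc7a1, the cationic amino acid carrier CAT1, was at 14.6 and 13.6 FPKM in wt and 17.7 and 14.8 FPKM in vcS5 (log2 change 0.19, adjusted p = 0.520). None of these rows passed the test.

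The 4 amino acid rows with an unadjusted p under 0.05 were Slc43a3, Slc43a1, Slc7a7 and Slc38a7. Slc43a3 belongs to a family of large neutral amino acid carriers but is itself known as a purine nucleobase carrier. Its level was 12.3 and 9.67 FPKM in wt and 5.47 and 5.92 FPKM in vcS5, with no overlap (log2 change -0.83, 95% interval -1.27 to -0.39), yet the adjusted p of 0.0503 missed the threshold. Slc43a1, the leucine carrier LAT3, was at 10.3 and 14.2 FPKM in wt and 5.05 and 8.82 FPKM in vcS5 (adjusted p = 0.185). Slc7a7, the light chain y+LAT1, was at 6.27 and 4.37 FPKM in wt and 3.58 and 2.19 FPKM in vcS5 (adjusted p = 0.179), in a locus shared with a second row. Slc38a7, a lysosomal glutamine carrier, was at 11.9 and 11.2 FPKM in wt and 9.27 and 6.12 FPKM in vcS5 (adjusted p = 0.193). All 4 were lower in both vcS5 libraries than in both wt libraries, as were 27.5% of all rows. They were picked by a p-value from the same libraries, which favours such separation. The log2 changes of Slc7a6, Slc38a6, Slc43a2, Slc36a1 and Slc38a10 were 0.21, 0.03, 0.19, -0.01 and -0.07. Rows of low level were Slc7a3, Slc3a1, Slc7a8, Slc1a3, Slc7a11 and Slc36a4, none above 3.25 FPKM in any library. Slc38a5 was at 7.17 FPKM in wt replicate 1 and at 2.25 to 3.22 FPKM in the other 3 libraries, so 1 library sets its difference.

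Slc6a19 lies outside those families, in the sodium and chloride coupled SLC6 group, and had the largest rise among the Slc rows past the threshold. It encodes B0AT1, the neutral amino acid carrier known from intestine and kidney. Its row (chromosome 13, 73679745 to 73709850, minus strand, mm10) was at 3.68 and 3.46 FPKM in wt and 18.4 and 10.8 FPKM in vcS5. Both vcS5 libraries were above both wt libraries, and vcS5 replicate 1 was the higher. Group means were 3.57 ± 0.15 FPKM in wt and 14.6 ± 5.35 FPKM in vcS5 (SD, n = 2 each), a 4.09-fold difference (log2 change 1.73, SE 0.26, limma adjusted p = 0.0244). The other SLC6 rows did not pass the test. Slc6a6, the taurine carrier, was at 25.9 and 24.0 FPKM in wt and 21.1 and 22.2 FPKM in vcS5, and Slc6a9, the glycine carrier GLYT1, ranged from 3.93 to 5.65 FPKM in wt and from 2.18 to 7.16 FPKM in vcS5. Of 30 genes of amino acid sensing and use, 25 were measured, with a median log2 change of -0.05. Among the 25, 1 rose and 0 fell, where 4.59% of all rows rose and 4.13% fell. That gene was Rptor, the raptor scaffold of mTOR complex 1, at 11.3 and 12.8 FPKM in wt and 22.5 and 30.4 FPKM in vcS5 (log2 change 1.06, adjusted p = 0.0351).

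Promoters of the carriers were searched for TTCNNNGAA, the palindromic core letters of sites that STAT factors bind, in the 250 bases before each annotated start. A gene can have several starts, and it was counted where any of them held a match. The sequences came from RefSeq on GRCm38.p6, the assembly of the mm10 build, and 149 of the 193 Slc symbols had an entry. The letters occurred in 12 of 149 Slc genes or 8.05%, in 7.43% of 8305 genes with a symbol in the table and in 8.13% of all 27025 RefSeq genes. Among 12 genes that passed the test and had an entry the count was 0. The promoters below are those of Slc7a1 (chr5:148392816-148393065, minus strand) and of Slc38a9 (chr13:112660516-112660765, plus strand), 2 amino acid carriers that hold the letters. They are shown because neither gene passed the test. Capitals mark the match, which starts at position -146 in Slc7a1 and -76 in Slc38a9, counted from the RefSeq start that follows the window. For Slc7a1 that start is an internal one, within the measured row, and not its first.
Slc7a1: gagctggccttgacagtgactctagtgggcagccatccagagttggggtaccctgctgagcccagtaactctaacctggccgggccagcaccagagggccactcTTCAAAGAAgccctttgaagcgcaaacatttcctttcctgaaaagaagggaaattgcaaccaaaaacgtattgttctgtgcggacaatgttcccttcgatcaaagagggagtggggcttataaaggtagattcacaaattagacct
Slc38a9: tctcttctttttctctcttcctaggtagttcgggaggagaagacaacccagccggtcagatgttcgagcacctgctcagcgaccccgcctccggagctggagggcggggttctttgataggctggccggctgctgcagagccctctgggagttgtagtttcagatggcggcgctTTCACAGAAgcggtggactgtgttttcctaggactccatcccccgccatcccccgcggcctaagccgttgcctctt
Slc38a9, the lysosomal arginine sensor that signals to mTOR complex 1, was at 10.5 and 9.23 FPKM in wt and 8.25 and 6.89 FPKM in vcS5 (log2 change -0.35, adjusted p = 0.269). A match of letters is a description and no evidence of binding, and its absence says only that these letters are not in the window.

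**Figure D2:**
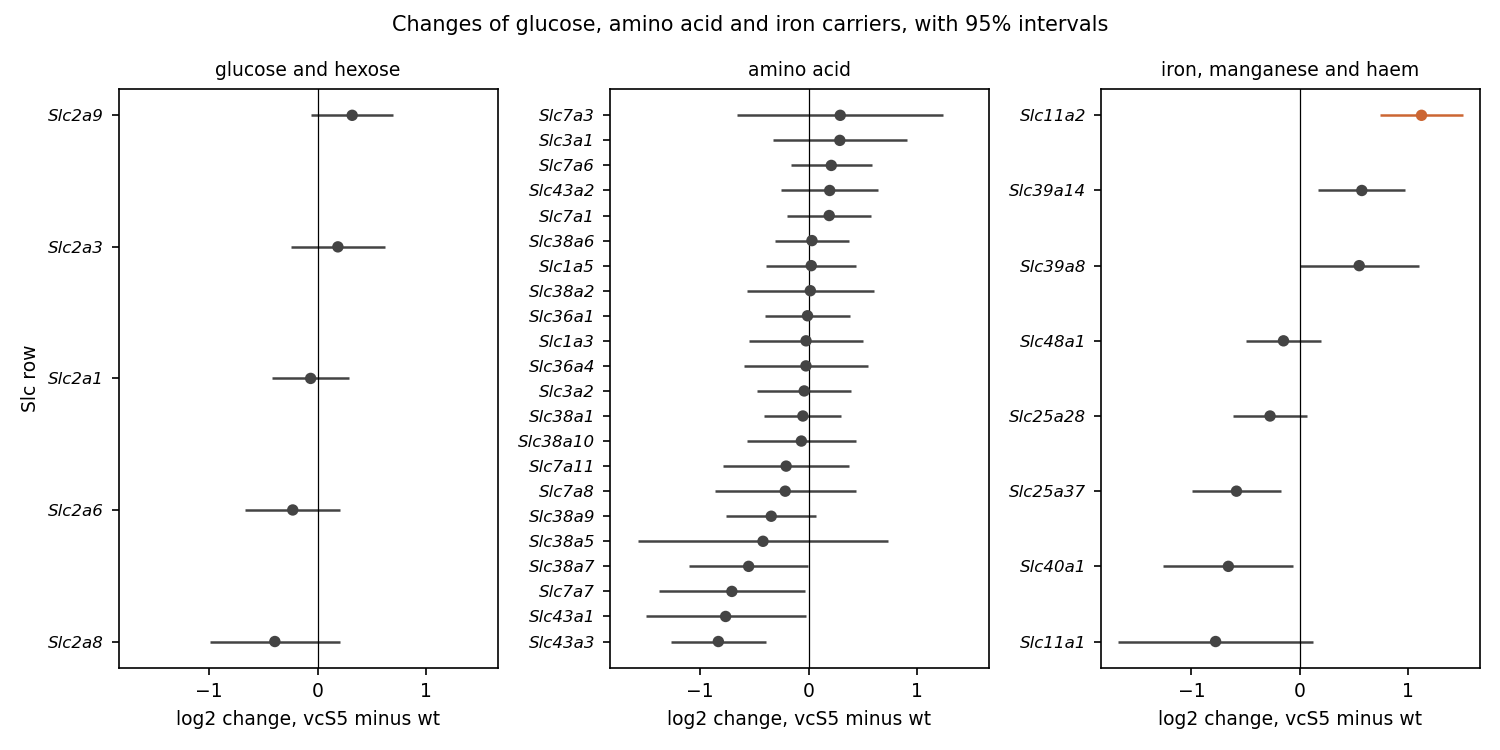
Log2 changes, vcS5 minus wt (x), with 95% intervals from limma for each measured row (y) of the glucose, amino acid and iron carriers. Slc11a2, in orange at 1.12, was the 1 row of these 3 groups past the adjusted threshold, and the intervals of all 5 glucose carriers cross 0. The SLC6 family is not shown, and its amino acid carrier Slc6a19 passed the threshold at 1.73.

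Among 8 iron, manganese and haem carriers 1 rose, Slc11a2, and 7 did not pass the test, where 4.59% of all rows rose. Slc11a2 encodes DMT1, the proton-coupled importer that brings ferrous iron across the plasma membrane and out of endosomes. Its row (chromosome 15, 100387898 to 100428150, minus strand, mm10) was at 19.3 and 20.1 FPKM in wt and 40.4 and 48.1 FPKM in vcS5, with no overlap. The mean rose from 19.7 ± 0.54 to 44.2 ± 5.48 FPKM (SD, n = 2 each), 2.24-fold (log2 change 1.12, SE 0.15, limma adjusted p = 0.0174). Its paralog Slc11a1, which encodes the phagosomal metal exporter NRAMP1 of macrophages and neutrophils, was at 20.6 and 18.0 FPKM in wt and 7.24 and 16.0 FPKM in vcS5. Both vcS5 libraries were below wt, but they stood far apart, and the change did not pass the test (log2 change -0.78, adjusted p = 0.253).

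Slc40a1 encodes ferroportin, the iron exporter. It was at 36.8 and 23.7 FPKM in wt and 17.3 and 19.5 FPKM in vcS5 (log2 change -0.66, 95% interval -1.26 to -0.06, adjusted p = 0.167). Slc25a37, the mitochondrial iron importer mitoferrin 1 of erythroid cells, was at 65.7 and 59.8 FPKM in wt and 37.5 and 45.9 FPKM in vcS5 (log2 change -0.58, adjusted p = 0.0956). Both were lower in each vcS5 library than in each wt library, as were 27.5% of all rows. Among the 8 iron, manganese and haem rows, 3 were higher and 5 lower without overlap. In the authors' deposited table both Slc40a1 and Slc25a37 have a q-value under 0.05, while neither passed the limma test. Slc25a28, the broadly expressed mitoferrin 2, was at 23.7 and 25.4 FPKM in wt and 20.8 and 19.4 FPKM in vcS5 (adjusted p = 0.283). Slc48a1, the haem carrier HRG1 of the phagolysosome, was at 17.0 and 15.5 FPKM in wt and 14.4 and 14.7 FPKM in vcS5 (adjusted p = 0.566). The ZIP carriers that also take up iron and manganese differed upward without passing the test. Slc39a14 was at 5.80 and 7.02 FPKM in wt and 9.79 and 10.2 FPKM in vcS5 (log2 change 0.57, adjusted p = 0.0969), and Slc39a8 at 1.64 and 1.19 FPKM in wt and 2.23 and 2.83 FPKM in vcS5 (log2 change 0.55, adjusted p = 0.198).

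Beside these rows, the sum of erythroid markers was 708 FPKM in vcS5 replicate 1 and 1430 FPKM or more in the other 3 libraries. Slc4a1, the band 3 anion exchanger of the red cell membrane, was likewise at 19.8 FPKM in vcS5 replicate 1 and at 65.2, 107 and 103 FPKM in wt replicate 1, wt replicate 2 and vcS5 replicate 2 (log2 change -0.87, adjusted p = 0.557). Without vcS5 replicate 1 its log2 change was 0.29. Both vcS5 values of Slc11a2 were above both wt values. The part of the erythroid cells, or of any other cell type, in the values of Slc4a1 and Slc11a2 was not tested. Among the macrophage markers, Spic, the transcription factor that defines red pulp macrophages, was at 8.13 and 6.30 FPKM in wt and 5.09 and 8.63 FPKM in vcS5 (log2 change -0.09). Hmox1, the haem oxygenase, was at 71.6 and 62.9 FPKM in wt and 28.2 and 44.7 FPKM in vcS5 (log2 change -0.90, adjusted p = 0.0938). The macrophage and monocyte list had a median log2 change of -0.38, and its part in the values of Slc40a1, Slc11a1 and Slc48a1 was not tested. Of 34 further genes of iron and haem handling, 27 were measured, with a median log2 change of -0.21. Among the 27, 0 rose and 1 fell, where 4.59% of all rows rose and 4.13% fell. The 1 was Bach2, a haem-binding repressor that is also a B and T cell regulator, at 61.3 and 71.2 FPKM in wt and 37.9 and 33.2 FPKM in vcS5 (log2 change -0.88, adjusted p = 0.0333).

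**Figure D3:**
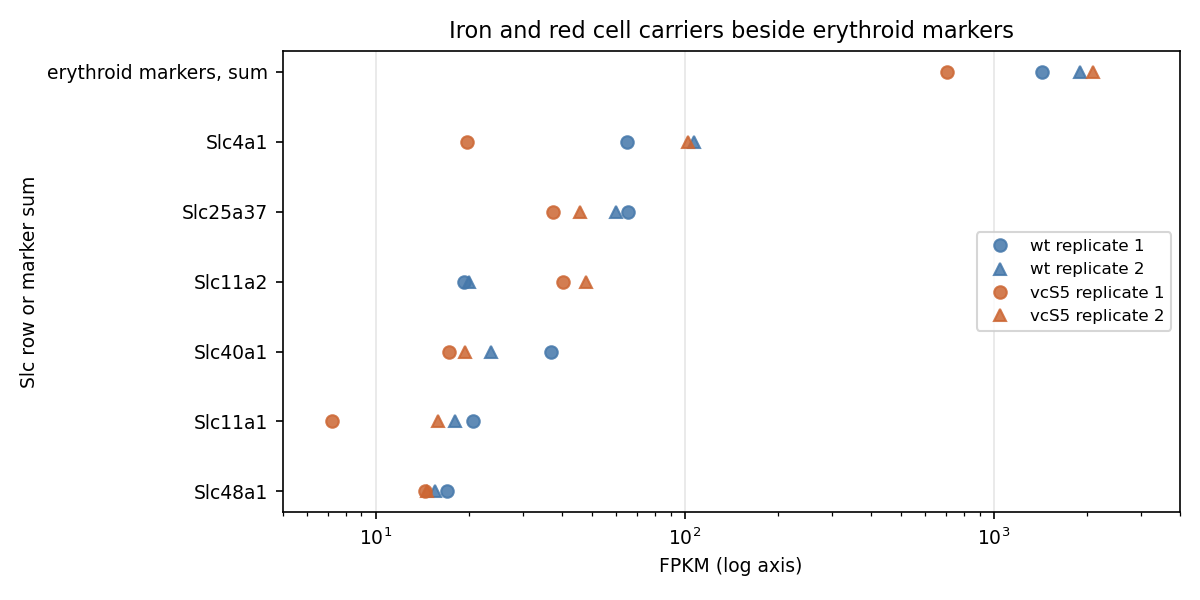
FPKM (x, log axis) in each library of 6 carriers of iron or of the red cell membrane and, at the top, of the summed erythroid markers (y), with wt in blue, vcS5 in orange, replicate 1 as circles and replicate 2 as triangles. Slc4a1 and the erythroid sum are lowest in vcS5 replicate 1, at 19.8 and 708 FPKM, while Slc11a2 is at 40.4 and 48.1 FPKM in vcS5 and at 19.3 and 20.1 FPKM in wt.

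Monocarboxylate carriers of the SLC16 family went in both directions, with 2 of 8 rows higher and 1 lower. Over all rows, 4.59% rose and 4.13% fell, and no carrier group was tested against those shares. Slc16a1 encodes MCT1, which moves lactate and pyruvate with a proton and serves glycolytic lymphocytes. Its row (chromosome 3, 104638668 to 104658462, plus strand, mm10) was at 10.3 and 8.70 FPKM in wt and 23.4 and 21.6 FPKM in vcS5. The groups did not overlap, and the mean rose from 9.48 ± 1.10 to 22.5 ± 1.33 FPKM (SD, n = 2 each), 2.37-fold (log2 change 1.17, SE 0.15, limma adjusted p = 0.0168). Slc16a5, a less studied member of the family (chromosome 11, 115460321 to 115474398, plus strand), was at 4.51 and 6.06 FPKM in wt and 10.8 and 14.1 FPKM in vcS5. It rose 2.36-fold, again with no overlap (log2 change 1.10, SE 0.21, adjusted p = 0.0400), in a locus shared with a second row. Slc16a7 encodes MCT2, a pyruvate carrier of higher affinity, and was low in all libraries. Slc16a7 (chromosome 10, 125226362 to 125341801, minus strand) was at 3.05 and 2.74 FPKM in wt and 1.09 and 0.862 FPKM in vcS5, 2.96-fold lower (log2 change -0.98, SE 0.20, adjusted p = 0.0468). The call was lost in a limma fit that took equal replicate numbers as a block, which no label states (adjusted p = 0.0718). Slc16a3, which encodes the lactate exporter MCT4, was at 9.57 and 4.90 FPKM in wt and 2.57 and 4.74 FPKM in vcS5 and did not pass the test (log2 change -0.80, adjusted p = 0.257). Slc16a10, an aromatic amino acid carrier, was at 7.09 and 4.89 FPKM in wt and 2.95 and 3.67 FPKM in vcS5 (adjusted p = 0.137). It did not pass the limma test, while the authors' deposited table calls it lower (q = 0.00473).

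Phosphate and related anion carriers of the SLC17 and SLC20 families had 2 of 4 rows higher and 0 lower. The share of all rows that rose was 4.59%, and this small group was not tested against it. Slc20a1 encodes PiT1, the sodium-coupled importer of inorganic phosphate, and was the most abundant row among those past the threshold. Its row (chromosome 2, 129197307 to 129235604, plus strand, mm10) was at 69.4 and 65.7 FPKM in wt and 136 and 134 FPKM in vcS5. The groups did not overlap, and the mean rose from 67.5 ± 2.60 to 135 ± 0.88 FPKM (SD, n = 2 each), 2.00-fold (log2 change 0.99, SE 0.13, adjusted p = 0.0180). The paralog Slc20a2, PiT2, was at 19.2 and 18.1 FPKM in wt and 18.8 and 13.8 FPKM in vcS5 (log2 change -0.20, adjusted p = 0.580). Slc17a9 encodes the vesicular nucleotide carrier, which loads ATP into secretory vesicles. Slc17a9 (chromosome 2, 180725114 to 180742417, plus strand) was at 25.1 and 27.0 FPKM in wt and 53.2 and 55.9 FPKM in vcS5, 2.09-fold higher with no overlap (log2 change 1.04, SE 0.13, adjusted p = 0.0161). Slc17a5, the lysosomal sialic acid exporter, was at 7.56 and 4.63 FPKM in wt and 7.60 and 8.25 FPKM in vcS5 (adjusted p = 0.422).

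The promoters of Slc16a1 (chr3:104638414-104638663, plus strand) and Slc20a1 (chr2:129198523-129198772, plus strand) are printed as those of a risen carrier from each of these groups, from RefSeq on GRCm38.p6. Capitals mark CACGTG, the palindromic E-box letters that MYC and related factors recognize, and these letters were searched only after the promoters had been seen. Of each gene's annotated starts, only those whose window holds the letters are shown.
Slc16a1: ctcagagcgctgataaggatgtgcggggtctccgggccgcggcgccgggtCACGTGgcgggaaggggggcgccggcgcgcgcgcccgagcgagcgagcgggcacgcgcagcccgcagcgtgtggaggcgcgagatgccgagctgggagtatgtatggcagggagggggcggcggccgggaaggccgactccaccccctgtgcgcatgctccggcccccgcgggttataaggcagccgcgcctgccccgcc
Slc20a1: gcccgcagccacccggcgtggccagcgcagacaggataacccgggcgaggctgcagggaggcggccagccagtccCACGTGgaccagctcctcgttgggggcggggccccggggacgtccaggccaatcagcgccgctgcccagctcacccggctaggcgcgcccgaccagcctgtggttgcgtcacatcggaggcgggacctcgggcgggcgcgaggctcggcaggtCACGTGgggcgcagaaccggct
The match starts at position -200 in Slc16a1 and at -175 and -22 in Slc20a1, counted from the RefSeq start that follows the window. The Slc20a1 window lies inside the measured row, which begins upstream of it. CACGTG occurred in 4 of the 12 genes past the threshold that had an entry, 33.3%, namely Slc12a7, Slc16a1, Slc20a1 and Slc29a1. The promoters of Slc16a1 and Slc20a1 had been seen before the search, so this share is not independent of that choice. The letters occurred in 24 of 149 Slc genes, 16.1%, in 10.2% of the genes with a symbol in the table and in 6.86% of all RefSeq genes. A gene was again counted where any start held a match, so genes with more starts have more windows that can match. Counted over single starts, the shares in the same order were 19%, 12.6%, 8.46% and 6.02%. No test was made of these shares.

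Ion exchangers and cotransporters gave 2 rises, where 4.59% of all rows rose. They were 1 of 5 cation and chloride cotransporters and 1 of 5 sodium and proton exchangers. Slc12a7 encodes KCC4, a potassium and chloride cotransporter that acts in cell volume control. Its row (chromosome 13, 73733100 to 73816743, plus strand, mm10) was at 16.1 and 19.5 FPKM in wt and 39.2 and 43.4 FPKM in vcS5. It rose 2.32-fold, with no overlap between groups (log2 change 1.17, SE 0.16, adjusted p = 0.0181). The Slc12a7 and Slc6a19 rows lie close to each other on chromosome 13, and both rose. Other cation and chloride cotransporters did not pass the test. Slc12a4 (KCC1) was at 7.217 and 6.997 FPKM in wt and 9.46 and 10.9 FPKM in vcS5 (adjusted p = 0.137). Slc9a9 encodes NHE9, a sodium and proton exchanger of endosomes. Slc9a9 (chromosome 9, 94669909 to 95230445, plus strand) was at 7.75 and 8.22 FPKM in wt and 15.9 and 14.0 FPKM in vcS5, 1.87-fold higher (log2 change 0.83, SE 0.15, adjusted p = 0.0336), and it was the 1 of 5 exchangers of its group that rose. With replicate numbers as a block in limma, which no label states, Slc9a9 lost the call (adjusted p = 0.0543). Bicarbonate and chloride exchangers had 0 of 11 rows past the threshold. Their lowest change was that of Slc4a8, a sodium-driven bicarbonate exchanger, at 12.9 and 8.87 FPKM in wt and 5.81 and 4.21 FPKM in vcS5 (log2 change -0.97, adjusted p = 0.0744).

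Carriers of the SLC35 family, most of which bring nucleotide sugars into the Golgi and the endoplasmic reticulum, held the 2 rises with the least spread between replicates among those over 3-fold. Slc35g1 is a family member whose substrate is not settled. Its row (chromosome 19, 38395980 to 38408132, plus strand, mm10) was at 5.17 and 5.24 FPKM in wt and 18.7 and 18.1 FPKM in vcS5. The mean rose from 5.20 ± 0.05 to 18.4 ± 0.44 FPKM (SD, n = 2 each), 3.54-fold (log2 change 1.65, SE 0.14), with the lowest adjusted p of the Slc rows, 0.00615. Slc35f2, known as the route by which the drug YM155 enters cells, had its row on chromosome 9, 53771535 to 53818161, plus strand. It was at 1.85 and 1.96 FPKM in wt and 6.86 and 7.19 FPKM in vcS5, 3.69-fold higher (log2 change 1.47, SE 0.16, adjusted p = 0.0117). In both rows the vcS5 libraries stood far above wt. Slc35f6 was higher still in vcS5 but uneven, at 7.19 and 8.05 FPKM in wt and 102 and 26.5 FPKM in vcS5. Its log2 change of 2.63 had a 95% interval of 1.08 to 4.17 and an adjusted p of 0.0643. Rows of the classical nucleotide sugar carriers did not pass the test. Slc35a2, the UDP-galactose carrier, was at 13.1 and 14.6 FPKM in wt and 16.6 and 12.5 FPKM in vcS5, and Slc35b1 was between 29.5 and 31.5 FPKM in all 4 libraries. Of 21 rows in the nucleotide sugar and acetyl-CoA group, 1 rose, Slc35f2, and 0 fell, where 4.59% of all rows rose.

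The SLC37 family is known for members that exchange sugar phosphates for phosphate across the endoplasmic reticulum membrane, which need not hold for each member. Of its members, Slc37a1 rose and Slc37a2 fell, while Slc37a3 and Slc37a4 did not pass the test (log2 changes 0.25 and 0.17). Slc37a1 (chromosome 17, 31295483 to 31350696, plus strand, mm10) was at 9.72 and 11.8 FPKM in wt and 19.7 and 21.2 FPKM in vcS5. It rose 1.90-fold with no overlap (log2 change 0.87, SE 0.16, adjusted p = 0.0351). Slc37a2, known from macrophages, has 2 rows at the same locus (chromosome 9, 37227584 to 37255738, minus strand), so reads may be divided between them. The more abundant row was at 11.62 and 12.03 FPKM in wt and 4.98 and 5.03 FPKM in vcS5, 2.36-fold lower (log2 change -1.09, SE 0.14, adjusted p = 0.0167). The other Slc37a2 row had the same direction, at 3.33 and 3.83 FPKM in wt and 1.82 and 1.42 FPKM in vcS5, and did not pass the test (adjusted p = 0.0700).

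Peptide carriers had 1 of 3 rows lower, where 4.13% of all rows fell. Slc15a4 encodes the endolysosomal histidine and peptide carrier that B cells and plasmacytoid dendritic cells need for signals from nucleic acid-sensing Toll-like receptors. Slc15a4 (chromosome 5, 127591495 to 127708754, minus strand, mm10) was at 60.0 and 59.0 FPKM in wt and 32.1 and 26.2 FPKM in vcS5. The groups did not overlap, and the row fell 2.04-fold (log2 change -1.01, SE 0.15, adjusted p = 0.0244). Beside it, the summed B cell markers were 2048 and 1977 FPKM in vcS5 and 4576 and 5538 FPKM in wt. Its part in the fall was not tested. Slc15a3, its endolysosomal relative, was at 7.12 and 7.34 FPKM in wt and 3.80 and 5.20 FPKM in vcS5 (adjusted p = 0.128). Slc15a2, the peptide carrier PEPT2, differed more within vcS5 than between groups, at 7.60 and 7.10 FPKM in wt and 2.86 and 18.8 FPKM in vcS5.

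Nucleoside carriers had 1 of 5 rows higher and 0 lower, where 4.59% of all rows rose. At an unadjusted p under 0.05, 1 row was higher and 2 lower, beside 1725 higher and 1870 lower of all 14226 rows. The authors' deposited q-values call 0 of the 5 higher and 1 lower, Slc29a4 (deposited log2 change -1.43, q = 0.00792). Slc29a1 encodes ENT1, the equilibrative nucleoside carrier through which cells salvage nucleosides. Slc29a1 (chromosome 17, 45585200 to 45599606, minus strand, mm10) was at 30.5 and 25.5 FPKM in wt and 52.9 and 47.1 FPKM in vcS5, 1.79-fold higher with no overlap (log2 change 0.82, SE 0.16, adjusted p = 0.0403). The row shares its locus with a second row, and it lost the call under quantile normalization (adjusted p = 0.0610) and without the variance trend (adjusted p = 0.0545). Mitochondrial carriers formed the largest group, with 1 of 39 rows higher, 0 lower and a median log2 change of 0.08. Slc25a4 encodes ANT1, one of the carriers that exchange ADP for ATP across the inner mitochondrial membrane. Slc25a4 (chromosome 8, 46206797 to 46211284, minus strand) was at 38.2 and 37.1 FPKM in wt and 67.3 and 69.6 FPKM in vcS5, 1.82-fold higher (log2 change 0.85, SE 0.13, adjusted p = 0.0241). Its paralog Slc25a5, ANT2, was at 174 and 148 FPKM in wt and 189 and 186 FPKM in vcS5 (log2 change 0.22, adjusted p = 0.448). Slc25a5 thus remained the more abundant of the pair per length, and the difference between the changes of the pair was not tested.

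**Figure D4:**
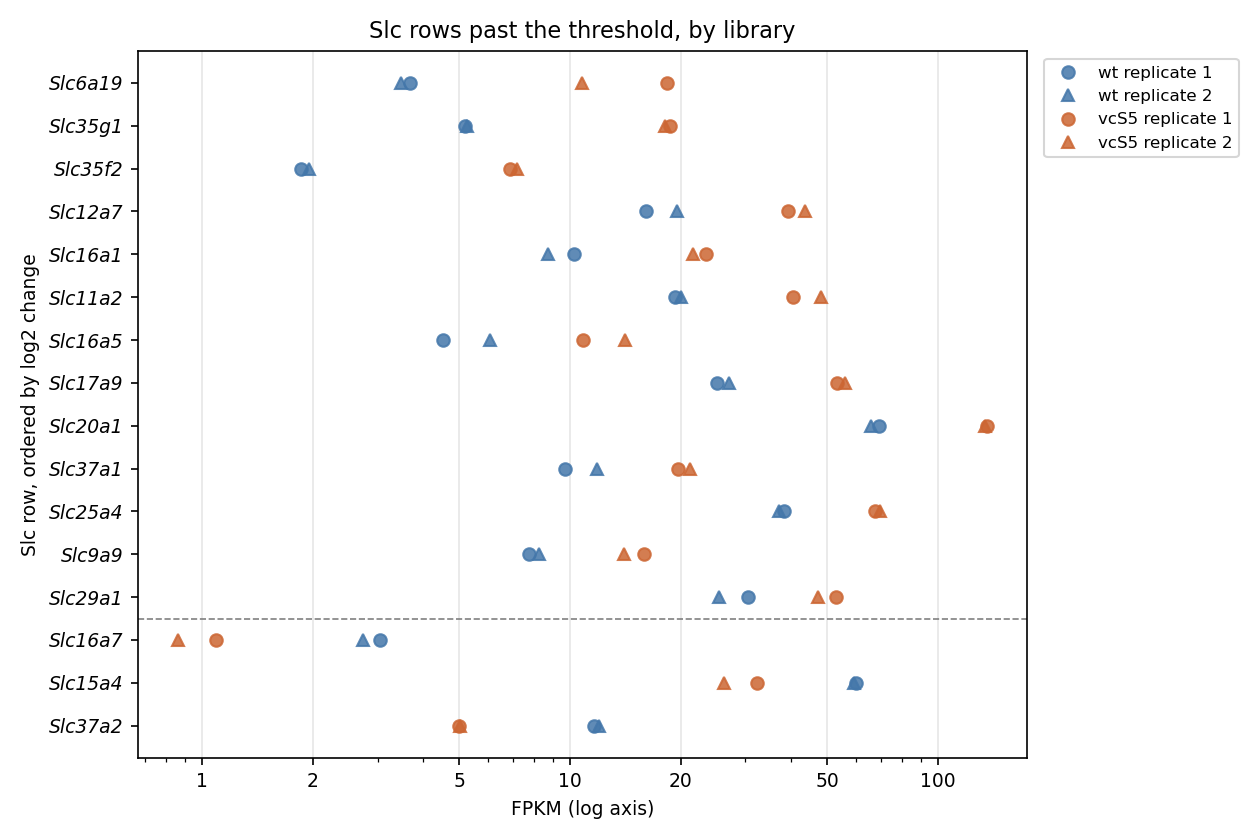
FPKM (x, log axis) in each library of the 16 Slc rows past the threshold (y, ordered by log2 change), with wt in blue, vcS5 in orange, replicate 1 as circles and replicate 2 as triangles. In all 16 rows the groups do not overlap, and the 3 rows below the dashed line, Slc16a7, Slc15a4 and Slc37a2, are lower in vcS5. The rows were chosen by a test on the same libraries, which favours such separation. Of all rows, 26.9% lie wholly above wt and 27.5% wholly below.

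Zinc carriers of the SLC30 and SLC39 families had 0 of 17 rows past the threshold and a median log2 change of 0.26. At an unadjusted p under 0.05, 4 rows were higher and 0 lower, beside 1725 higher and 1870 lower of all 14226 rows. Slc30a4, which loads zinc into vesicles, was at 5.46 and 5.11 FPKM in wt and 11.3 and 8.31 FPKM in vcS5 (log2 change 0.77, adjusted p = 0.0757). Slc39a6, the zinc importer ZIP6, was at 12.1 and 13.9 FPKM in wt and 20.8 and 19.3 FPKM in vcS5 (log2 change 0.59, adjusted p = 0.0744). Both vcS5 values lay above both wt values in each row, as in 26.9% of all rows. Copper and magnesium carriers had 0 of 5 rows past the threshold and a median log2 change of -0.54. Slc41a2, a magnesium carrier, was at 6.10 and 5.47 FPKM in wt and 2.42 and 3.21 FPKM in vcS5 (log2 change -0.84, adjusted p = 0.0594), and Slc31a1, the copper importer CTR1, was at 8.54 and 6.73 FPKM in wt and 5.36 and 4.46 FPKM in vcS5 (adjusted p = 0.152). Of the choline carriers, Slc44a2 was between 116 and 128 FPKM in all libraries, and Slc44a1 was at 8.68 and 11.9 FPKM in wt and 5.85 and 5.25 FPKM in vcS5 (adjusted p = 0.0784). Vitamin carriers had 0 of 6 rows past the threshold. Slc19a1, the reduced folate carrier, was at 11.9 and 11.8 FPKM in wt and 16.4 and 17.2 FPKM in vcS5 (log2 change 0.47, adjusted p = 0.101). Slc14a1, the urea carrier of red cells, was at 8.98 and 11.8 FPKM in wt and 13.9 and 12.3 FPKM in vcS5.

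The most abundant Slc rows did not pass the test. Slc25a3, the mitochondrial phosphate carrier, was at 273 and 267 FPKM in wt and 273 and 251 FPKM in vcS5 (log2 change -0.05, adjusted p = 0.893). Slc39a7, a zinc carrier of the endoplasmic reticulum whose row merges 2 genes, was at 157 and 172 FPKM in wt and 174 and 207 FPKM in vcS5 (adjusted p = 0.503). Slc1a5 and Slc25a5, given above, also belong here. The row named Slc22a27 had the highest mean, at 4246 and 3085 FPKM in wt and 2970 and 4402 FPKM in vcS5 (log2 change -0.00). That value is uncertain as a level of Slc22a27, an organic anion carrier gene, since the row spans 393 kb that also hold Slc22a28, Slc22a29 and a small RNA gene, and it shares its locus with another row.

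Carriers of the same superfamily that bear other symbols were listed beside the Slc rows. Of 39 such genes 29 were measured, with a median log2 change of -0.03. Among the 29, 1 rose and 3 fell, where 4.59% of all rows rose and 4.13% fell. Slco3a1, an organic anion carrier, was at 6.48 and 7.24 FPKM in wt and 36.0 and 35.6 FPKM in vcS5 (log2 change 2.23, adjusted p = 0.00260). Spns2, the exporter of sphingosine 1-phosphate, was at 10.7 and 15.3 FPKM in wt and 4.03 and 3.09 FPKM in vcS5 (log2 change -1.61, adjusted p = 0.0201). Its relative Spns3 was at 7.39 and 7.19 FPKM in wt and 2.29 and 3.05 FPKM in vcS5 (log2 change -1.18, adjusted p = 0.0242). Pqlc2, a lysosomal exporter of cationic amino acids, was at 12.5 and 13.4 FPKM in wt and 6.23 and 7.57 FPKM in vcS5 (log2 change -0.83, adjusted p = 0.0405). In these 4 rows, picked by a test on the same libraries, the groups did not overlap.

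In the authors' deposited table, 15 Slc rows were higher at a q-value under 0.05, or 7.69% beside 5.31% of all rows, and 12 were lower, or 6.15% beside 6.14%. Of the 16 Slc rows past the limma threshold, 15 are among these 27, the exception being Slc29a1. The rows that only the deposited table calls higher are Slc35f6, Slc30a4 and Slc25a30. Those that it alone calls lower include Slc40a1, Slc25a37, Slc43a3, Slc35c2, Slc16a10 and Slc29a4. With 2 libraries per group the limma calls rest on all 4 libraries together. Leaving out wt replicate 1 or vcS5 replicate 1 left 0 Slc rows past the threshold, and leaving out wt replicate 2 or vcS5 replicate 2 left 1, Slc35g1 and Slc35f6 in that order, while each of the 16 log2 changes kept its sign.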

How the data were processed

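RNA from splenocytes was made into TruSeq v2 libraries and read as 50 bp single ends, per the labels' protocols and the series design. The kit does not mark strand, so overlapping genes cannot be told apart. Bowtie2 2.1.0, TopHat2 2.0.9, Cufflinks, Cuffdiff 2.1.1 and mm10 are named in the submitters' processing notes. The authors deposited FPKM for 4 libraries, with their log2 fold change, p-value and q-value, per the file headers. Depth behind an FPKM is unknown.

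All 14226 rows were fitted with limma 3.58.1 in R 4.3.3 on log2(FPKM + 1), with variance trend, two-sided and Benjamini-Hochberg adjusted at 0.05. Fold changes on this scale understate changes of low rows, while folds quoted are ratios of mean FPKM. No row fell below the planned minimum, a mean of 1 FPKM. The code was tested on simulated data, with 200 rows changed per run. It recovered 0.0% of 1.5-fold, 7.9% of 2-fold, 59.4% of 4-fold and 77.3% of 8-fold changes there. A row that did not pass the test may therefore have changed. Fewer rows changed in the simulation than passed the threshold in the real data. The spread given to each simulated row was itself estimated from 2 libraries per group, so it carries the noise of that estimate. For both reasons these rates need not carry over. Of the 195 Slc rows, 43 share a locus with another row and 4 merge genes. All 195 identifiers were found in GENCODE vM21, 194 under the same symbol. The annotation holds 371 protein-coding Slc genes, and those without a row are not analysed here. Coordinates are 1-based.

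Named were all Slc rows past the threshold, all measured glucose, amino acid and iron carriers by value, count or range, the 5 most abundant Slc rows, Stat5a and list genes past the threshold. Rows past the unadjusted threshold, close relatives of named carriers and Slc35f6, Slc4a1 and Slc15a2 were added after their values were seen. Carriers, marker lists and pathway lists were chosen with earlier results of these data known. Some carriers are not reported here.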

Additional observations from a re-analysis of the deposited data

How the results depend on the processing

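With 2 libraries per group, leaving out each replicate in turn makes the lone library be assumed to vary like the other group. Slc rows past the threshold then numbered 0 to 1 higher and 0 to 0 lower, the carrier groups with a call 0 to 1 against 11, the iron carriers 0 to 0 against 1, and all rows 71 to 245 against 1241. The median log2 change over Slc rows ran from -0.018 to 0.056. Fewer libraries enter these fits. Single carriers were read from these fits only for the 16 past the threshold and for part of the other carriers named, so the list of turned signs is not complete. Signs turned for 4 of that part, whose log2 changes ran from -0.08 (without wt replicate 1) to 0.12 for Slc1a5, from -0.14 to 0.01 (without vcS5 replicate 2) for Slc2a1, from -2.03 to 0.29 (without vcS5 replicate 1) for Slc4a1 and from -1.11 (without vcS5 replicate 2) to 1.25 for Slc15a2. Slc1a5 was also at -0.05 without vcS5 replicate 2. Slc35f6 passed it without vcS5 replicate 2 (adjusted p = 0.0209).

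Pseudocounts of 0.1 and 5 and no filter kept the 16 Slc rows, a mean of at least 5 FPKM kept 14, quantile normalization 15 of its 16, and no variance trend 15. By the authors' q-values 12 Slc rows were lower, with 1 amino acid carrier and 3 iron carriers called, and the cause was not tested. Counting only one-gene rows with a locus of their own, a choice made after seeing the data, gave 9 higher and 2 lower. With the replicate block, 12 Slc rows were higher and 3 lower, 14 of them shared with the 16. Slc9a9 (adjusted p = 0.0543) and Slc16a7 (adjusted p = 0.0718) lost the call. No label pairs the numbers, and the differences between replicates correlated between groups at r = 0.176 over rows. With 2 libraries per group, that value can neither show nor exclude a pairing. No counting limit can be given without read depth.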
